A study of Mus musculus with 8 samples.

Results

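The hypoxia response and glycolysis genes described here are 31 named mouse genes, taken by symbol from the deposited table. They fill 32 rows of its 14133 genes, because Aldoa is listed under a pair of identifiers. Of these rows 14 are hypoxia response genes and 18 are genes of glycolysis, and all 32 passed the filter on low counts that left 14006 genes for testing. Expression was measured by RNA sequencing of whole tumours grown under the skin of male mice. The tumours were seeded with CT26 cells, a colon carcinoma line of mouse origin. The 4 propranolol tumours came from mice injected daily into the peritoneum with propranolol, a blocker of beta-adrenergic receptors, once tumours measured 70 to 100 mm3. The 4 control tumours came from mice given PBS. All mice carry the wild-type label and a strain label spelled BABL/C. Neither age, dose nor collection day is stated in the labels.

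Cells short of oxygen stop hydroxylating the alpha subunits of hypoxia-inducible factor (HIF), which then escape destruction by the VHL ubiquitin ligase, pair with ARNT and bind DNA at short elements with the core ACGTG or GCGTG. Their targets raise glucose uptake and glycolysis, export acid, call in blood vessels, modify collagen and turn over mitochondria. Solid tumours contain poorly perfused zones, and glycolytic enzymes are also abundant in tumour cells that have oxygen.

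Before the expression values, promoter sequence is shown for 6 genes that span what the results below hold: Car9 and Ankrd37, which had the widest ranges between tumours, Bnip3 and Pgk1, Ldha, which had the highest level per length, and Pfkm, which hardly varied. Each line is the 250 bases before an annotated RefSeq start on build GRCm38.p6, 5′ to 3′ on the gene's strand, and capitals mark ACGTG on either strand (read as CACGT on the opposite one). Where a gene has several annotated starts, the window with most matches is shown. The windows are Car9 chr4:43506776-43507025 on the + strand, Ankrd37 chr8:45999851-46000100 on the - strand, Bnip3 chr7:138909507-138909756 on the - strand, Pgk1 chrX:106186850-106187099 on the + strand, Ldha chr7:46845554-46845803 on the + strand and Pfkm chr15:98092339-98092588 on the + strand.
Car9: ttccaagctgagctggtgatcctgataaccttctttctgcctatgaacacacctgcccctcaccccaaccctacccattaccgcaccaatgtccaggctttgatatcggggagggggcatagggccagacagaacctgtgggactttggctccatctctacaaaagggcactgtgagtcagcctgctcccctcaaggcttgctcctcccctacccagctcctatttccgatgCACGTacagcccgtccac
Ankrd37: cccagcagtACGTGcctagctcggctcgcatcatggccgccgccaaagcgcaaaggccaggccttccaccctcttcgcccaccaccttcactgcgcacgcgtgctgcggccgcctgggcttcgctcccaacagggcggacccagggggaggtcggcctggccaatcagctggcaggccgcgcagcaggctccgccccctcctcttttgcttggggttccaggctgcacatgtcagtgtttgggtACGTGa
Bnip3: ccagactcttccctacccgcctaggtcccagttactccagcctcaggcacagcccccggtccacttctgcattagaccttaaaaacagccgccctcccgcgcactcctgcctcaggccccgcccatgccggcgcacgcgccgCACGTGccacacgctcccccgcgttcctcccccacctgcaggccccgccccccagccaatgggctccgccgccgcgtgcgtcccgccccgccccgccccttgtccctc
Pgk1: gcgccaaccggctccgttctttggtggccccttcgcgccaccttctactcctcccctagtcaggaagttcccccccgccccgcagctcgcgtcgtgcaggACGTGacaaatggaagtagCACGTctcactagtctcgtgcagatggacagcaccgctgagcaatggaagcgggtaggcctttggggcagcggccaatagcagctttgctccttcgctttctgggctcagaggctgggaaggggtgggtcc
Ldha: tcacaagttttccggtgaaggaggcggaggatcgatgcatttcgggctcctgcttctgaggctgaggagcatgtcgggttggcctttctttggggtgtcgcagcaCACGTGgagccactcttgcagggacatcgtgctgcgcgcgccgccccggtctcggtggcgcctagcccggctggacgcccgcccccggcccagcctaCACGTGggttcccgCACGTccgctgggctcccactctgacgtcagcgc
Pfkm: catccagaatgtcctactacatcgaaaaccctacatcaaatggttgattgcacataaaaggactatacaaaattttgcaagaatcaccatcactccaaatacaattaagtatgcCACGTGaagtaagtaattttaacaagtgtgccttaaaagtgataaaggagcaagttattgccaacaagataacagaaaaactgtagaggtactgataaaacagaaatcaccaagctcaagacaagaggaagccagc

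RefSeq promoters were found for 30 of the 31 symbols, in 47 windows, and not for Ndrg1. ACGTG was present in at least one window of 10 of 13 hypoxia response genes (76.9%) and of 9 of 17 glycolysis genes (52.9%), against 24.5% of the 10567 tested genes with a promoter entry and 18.5% of all 27025 genes in the promoter table. GCGTG was present for 10 of 13 hypoxia response genes (76.9%) and 10 of 17 glycolysis genes (58.8%), against 48.5% of tested genes and 30.9% of all genes. Genes with more windows have more chances of a match. Counted per window, ACGTG was in 57.9% of hypoxia response and 42.9% of glycolysis windows, against 21.0% of windows of tested genes. GCGTG was in 52.6% and 46.4%, against 42.9% of windows of tested genes. Both strands were searched. CACGTG reads the same on both strands and counts on each, and the ACGTG and GCGTG matches may overlap. The match in Car9 lies 18 bases before the annotated start, and the Ldha window holds the most matches of those shown, 5. Pfkm, whose level is flat below, also holds a CACGTG, in 1 of its 4 windows, and an ACGTG in another. A match describes these letters in this window only.

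Library totals lay between 15483409 and 17511937 counts. Values below are CPM, read counts per library size scaled by TMM, a normalisation that centres the bulk of genes, and a log2 level is log2 CPM with a prior count of 2. Single tumours stood apart in ways that touch these genes. Propranolol tumour 3 and control tumour 3 carried the highest hypoxia response levels, propranolol tumours 1 and 4 carried the most T cell transcripts, and control tumour 4 held skeletal muscle transcripts, whose summed level over 10 muscle markers was 889.9 CPM there against 5.85 to 97.2 CPM in the other tumours. Of 6 listed epithelial markers 4 were measured, Krt8, Krt18, Cdh1 and Krt20. Their summed level was 83.2 to 185 CPM in propranolol tumours and 71.9 to 166 CPM in control tumours. Krt8 was scarce in places, at 0.121 CPM in propranolol tumour 4. In whole tumours, fewer cells of a type and less RNA per cell cannot be told apart.

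No hypoxia response or glycolysis gene differed between propranolol and control tumours past the threshold. The question was put to all genes with edgeR's quasi-likelihood test and Benjamini-Hochberg adjustment at 0.05. It called 0 of the 32 rows and 0 of all 14006 genes (0.0%), with a smallest adjusted p of 0.999. At an unadjusted p under 0.05 there were 2 of 32 rows, Pfkp and Pfkfb3, and 273 of all genes (1.95%). DESeq2 also called 0 genes, with 337 at an unadjusted p under 0.05. The CPM ranges of the groups overlapped for all 32 rows, whereas they did not overlap for 228 of all genes (1.63%).

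All 14 hypoxia response genes were fitted higher in propranolol tumours, with log2 fold changes of 0.10 to 1.15 and a median of 0.34, and 15 of 18 glycolysis rows were fitted higher, with a median of 0.21. Over all 14006 genes the median was -0.0022 and 6918 were fitted higher. This lean rested on 1 tumour. Without propranolol tumour 3, 0 of 14 hypoxia response genes were fitted higher and their median was -0.40, and 6 of 18 glycolysis rows were fitted higher with a median of -0.05. Leaving out control tumour 3 instead gave medians of 0.81 and 0.34, and leaving out control tumour 4 gave 0.09 and 0.17. With the tumour number as a block the medians were 0.19 and 0.14.

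**Figure D1:**
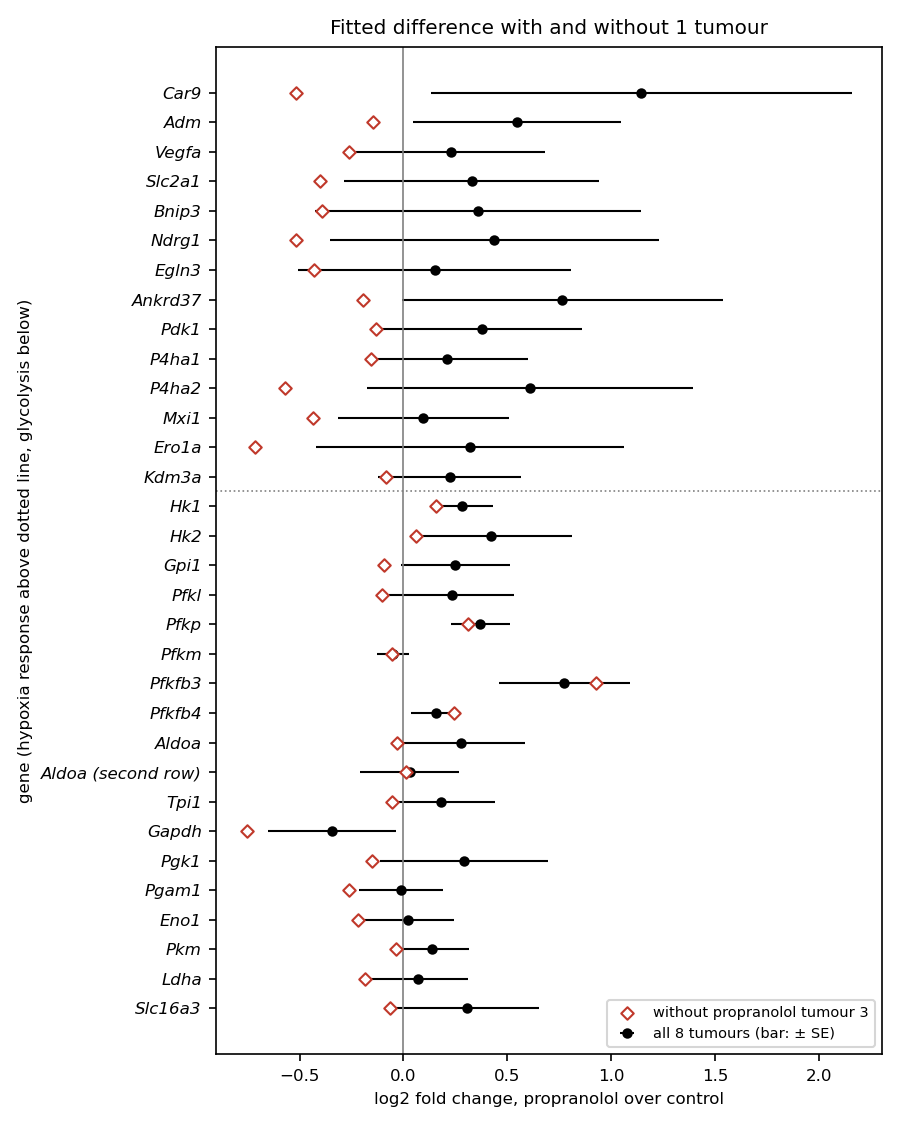
Log2 fold change of each hypoxia response and glycolysis gene, propranolol over control, from edgeR on all 8 tumours (filled points, bars ± SE) and on 7 tumours without propranolol tumour 3 (open diamonds). All 14 hypoxia response genes lie right of 0 with all tumours and left of 0 without that one. Hk1, Hk2, Pfkp, Pfkfb3, Pfkfb4 and the second Aldoa row, 6 of 18 glycolysis rows, stay right of 0.

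The variation lay between tumours within each group. As a summary, the hypoxia score is the mean over the 14 genes of the log2 level minus the gene's own mean over the 8 tumours. It was -0.79, -0.72, 1.59 and 0.31 in propranolol tumours 1 to 4, against 0.01, -0.25, 0.80 and -0.95 in control tumours 1 to 4. The highest and second highest tumours thus came one from each group, and so did the lowest and second lowest. The same score over the 18 glycolysis rows was -0.29, -0.24, 0.56 and 0.23 in propranolol tumours and -0.22, -0.14, 0.23 and -0.13 in control tumours. The glycolysis score followed the hypoxia score across tumours, with a Pearson r of 0.913 over 8 tumours and 0.810 without propranolol tumour 3. This is a description of levels that share their libraries.

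Propranolol tumour 3 held the highest CPM of 13 of 14 hypoxia response genes and of 13 of 18 glycolysis rows, against 14.2% of all genes. Egln3 was the exception in the first group. Propranolol tumour 3 and control tumour 3 together held both of the 2 highest values for 13 of 14 hypoxia response genes and 7 of 18 glycolysis rows, with Car9 the exception in the first group. The lowest tumour was control 4 for 8 of 14 hypoxia response genes, and propranolol 1 for 11 of 18 glycolysis rows. Over all 14006 genes, control 4 was lowest for 2411 and propranolol 1 for 2083. Propranolol tumour 3 and control tumour 3 held both highest values for 1567 of all 14006 genes.

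**Figure D2:**
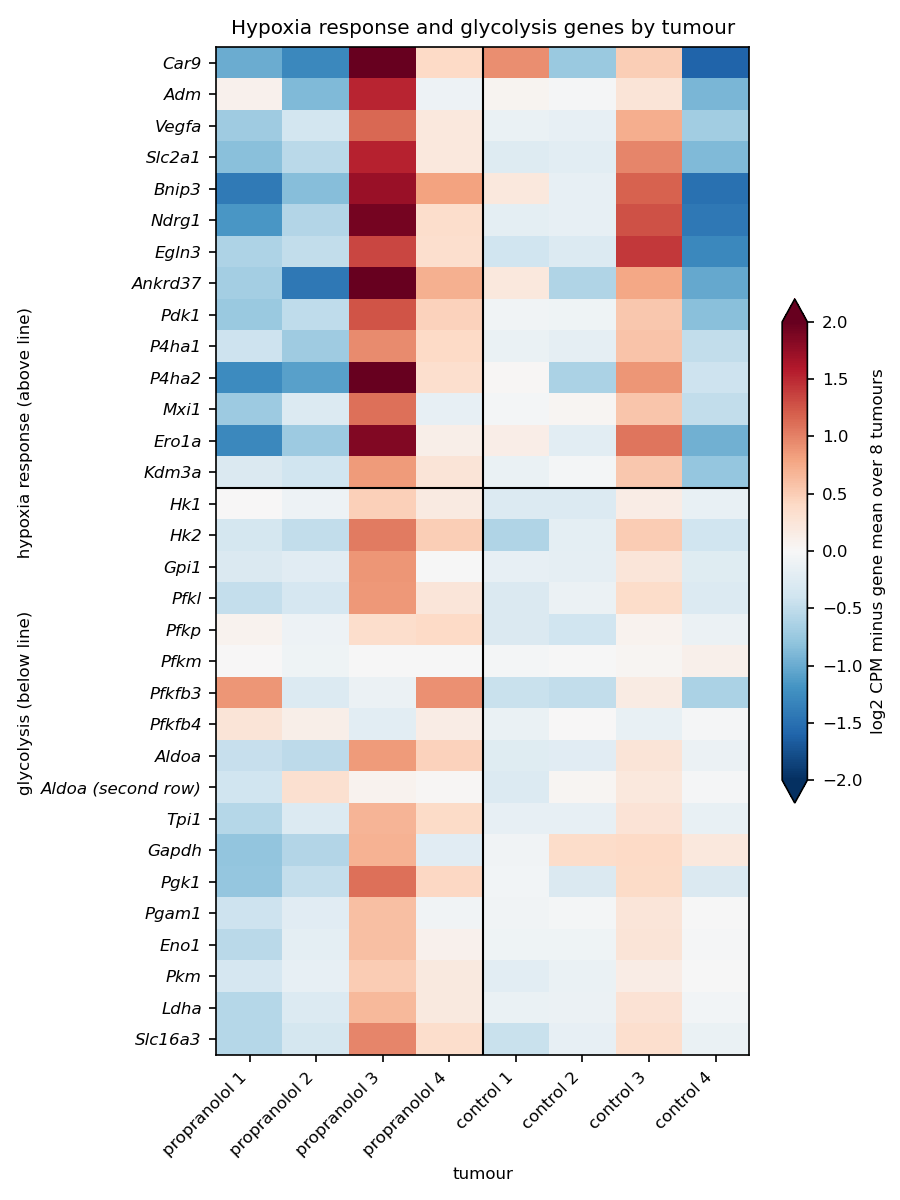
Log2 CPM of each gene minus its mean over the 8 tumours (colour), with 4 propranolol tumours left of the vertical line and 4 control tumours right of it, hypoxia response genes above the horizontal line and glycolysis genes below. Propranolol tumour 3 and control tumour 3 are red down most of both groups, and the rows of Pfkm, Pfkfb3, Pfkfb4 and the second Aldoa row do not share the pattern.

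Car9 encodes carbonic anhydrase IX, a membrane enzyme that helps cells export acid. It lies at chr4:43506966-43513729 on the + strand of GRCm39, and had the widest range of the group, 22-fold over the 8 tumours. Its levels were 9.48, 7.69, 136 and 25.0 CPM in propranolol tumours 1 to 4, against 36.1, 11.3, 26.8 and 6.15 CPM in control tumours 1 to 4. Propranolol tumour 3 was 3.75 times as high as the next tumour, and the other 3 propranolol tumours lay within the control range. The means were 44.4 ± 61.3 CPM in propranolol tumours and 20.1 ± 13.8 CPM in control tumours (SD, n = 4 each). The log2 fold change was 1.15 (SE 1.01, edgeR adjusted p 0.999), and -0.52 without propranolol tumour 3.

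Of the secreted vascular factors, Vegfa encodes the endothelial growth factor VEGF-A and Adm the vasodilator peptide adrenomedullin. Vegfa levels were 114, 145, 414 and 217 CPM in propranolol tumours, against 170.3, 166, 308 and 115 CPM in control tumours. Adm was far scarcer, at 4.52, 2.25, 12.4 and 3.95 CPM in propranolol tumours and 4.39, 4.15, 5.07 and 2.18 CPM in control tumours. Tumour 3 was the highest of its group for both genes. The fitted log2 fold changes were 0.23 (SE 0.45) for Vegfa and 0.55 (SE 0.50) for Adm, each smaller than or close to its standard error. The summed level of 10 endothelial markers was 265 CPM in propranolol tumour 3, within the range of 195 to 298 CPM in propranolol tumours and next to 247 to 293 CPM in control tumours.

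Slc2a1 encodes GLUT1, the glucose transporter that feeds glycolysis. It measured 73.1, 90.4, 381 and 151 CPM in propranolol tumours, against 109.7, 114, 259 and 70.8 CPM in control tumours. The lowest values of the groups were nearly equal and the highest was tumour 3 in each. The means were 174 ± 142 CPM in propranolol tumours and 138 ± 82.9 CPM in control tumours (SD, n = 4 each). The fitted log2 fold change of Slc2a1 was 0.33 (SE 0.61), and -0.40 without propranolol tumour 3.

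Bnip3 encodes a mitochondrial outer membrane protein that marks mitochondria for autophagy, and Pdk1 a kinase that switches off pyruvate dehydrogenase. Bnip3 levels were 30.1, 44.6, 266 and 139.95 CPM in propranolol tumours, against 93.4, 71.4, 182 and 28.4 CPM in control tumours, a 9.38-fold range. Pdk1 levels were 46.3, 54.8, 185 and 107 CPM in propranolol tumours and 73.7, 72.9, 113 and 43.6 CPM in control tumours. In both genes propranolol tumours 1 and 2 lay at the low end beside control tumour 4, and propranolol tumour 4 above control tumours 1 and 2.

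Egln3, a prolyl hydroxylase that marks HIF alpha subunits for destruction and is itself a HIF target, was scarce. It measured 2.26, 2.48, 9.18 and 4.49 CPM in propranolol tumours, against 2.67, 2.90, 9.61 and 1.38 CPM in control tumours. The highest tumours of the groups were almost level, and the log2 fold change was 0.15 (SE 0.66). Ankrd37, an ankyrin repeat protein induced by HIF, measured 5.14, 3.02, 34.9 and 13.7 CPM in propranolol tumours and 9.60, 5.46, 14.3 and 4.02 CPM in control tumours, an 11.6-fold range.

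P4ha1 and P4ha2 encode catalytic subunits of collagen prolyl hydroxylase, which stabilises collagen, and Ero1a an oxidase that makes disulphide bonds in the endoplasmic reticulum. P4ha2 measured 16.2, 18.3, 169 and 49.2 CPM in propranolol tumours, against 39.4, 25.1, 71.9 and 29.0 CPM in control tumours. Ero1a measured 85.9, 126, 759 and 228 CPM in propranolol tumours, against 230.2, 181, 441 and 108 CPM in control tumours. Both spanned about an order of magnitude, 10.4-fold and 8.84-fold over the 8 tumours, whereas P4ha1 spanned 3.17-fold (109 to 347 CPM in propranolol tumours, 127 to 267 CPM in control tumours). Without propranolol tumour 3 the log2 fold change of Ero1a was -0.71, against 0.32 (SE 0.74) with it.

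Ndrg1, a stress-responsive cytoplasmic protein, was the hypoxia response gene with the highest level per length (56.6 FPKM on average over the 8 tumours). Its levels were 127, 189.6, 1069.6 and 361 CPM in propranolol tumours, against 247, 252, 685 and 105 CPM in control tumours. Mxi1, which antagonises the transcription factor Myc, measured 44.5, 60.8, 158 and 65.6 CPM in propranolol tumours and 71.7, 75.9, 108 and 52.2 CPM in control tumours. Kdm3a, a histone demethylase, had the narrowest range of the 14, 3.09-fold, with 108 to 256 CPM in propranolol tumours and 83.0 to 205 CPM in control tumours. The log2 level of each of the 14 genes followed the mean of the other 13 over the 8 tumours, with a Pearson r of 0.852 (Adm) to 0.985 (Vegfa), and of 0.660 (Adm) to 0.979 (Bnip3) without propranolol tumour 3. These r values carry no test, since all 14 come from the same libraries.

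**Figure D3:**
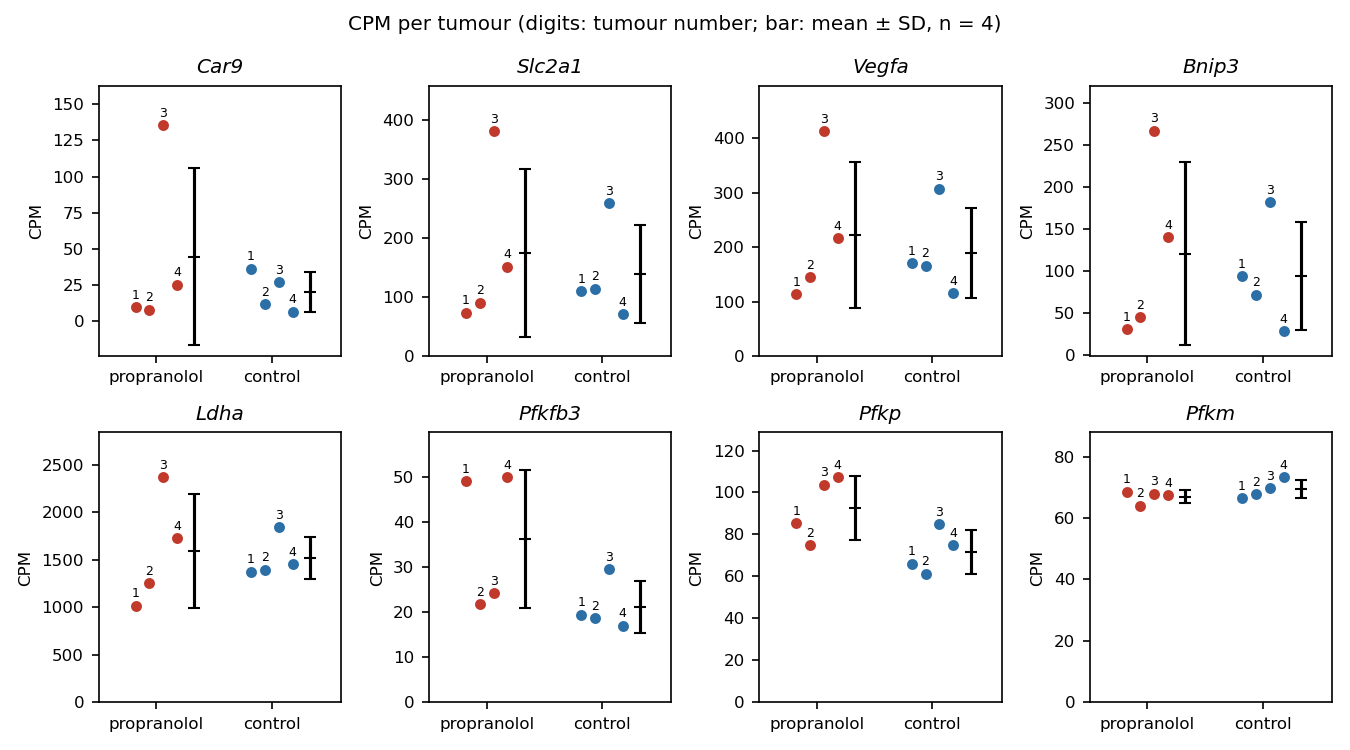
CPM per tumour for 8 genes (linear axes), propranolol left and control right of each panel, digits giving the tumour number and bars the mean ± SD (n = 4 per group). Tumour 3 is highest in both groups for Slc2a1, Vegfa, Bnip3 and Ldha, propranolol tumours 1 and 4 are the highest for Pfkfb3, and Pfkm is flat.

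The highest and lowest of the 8 tumours differed by 1.14 to 3.67-fold among the glycolysis rows, against 3.09 to 22-fold among the hypoxia response genes. Hexokinases trap glucose in the cell as glucose phosphate. Hk1 spanned 1.68-fold, with 147, 137, 204 and 166 CPM in propranolol tumours against 121, 121, 163 and 132 CPM in control tumours. Control tumour 3 was the 1 control tumour within the propranolol range, and the log2 fold change was 0.28 (SE 0.15, unadjusted p 0.0831, edgeR adjusted p 0.999). Hk2, the hexokinase known as a HIF target, spanned 3.15-fold and measured 62.3, 56.4, 164 and 112 CPM in propranolol tumours and 52.1, 69.6, 113 and 60.3 CPM in control tumours.

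The first committed step is made by phosphofructokinase, whose 3 subunit genes had unlike profiles over the tumours. Pfkl, the liver-type subunit, followed the other glycolysis genes (r 0.988 with their mean) and measured 121, 133, 308 and 199 CPM in propranolol tumours against 138, 155, 216 and 139 CPM in control tumours. Pfkp, the platelet-type subunit, measured 85.3, 75.0, 104 and 107 CPM in propranolol tumours against 66.0, 61.3, 85.0 and 74.9 CPM in control tumours. Pfkp had the smallest unadjusted p of the 32 rows (log2 fold change 0.37, SE 0.14, unadjusted p 0.0271, edgeR adjusted p 0.999), with all 4 propranolol values above 3 of the 4 control values. Pfkm, the muscle-type subunit, was nearly constant, at 68.5, 64.0, 67.9 and 67.5 CPM in propranolol tumours and 66.5, 67.7, 69.8 and 73.2 CPM in control tumours. It spanned 1.14-fold, was highest in control tumour 4, the tumour with muscle transcripts, and had a log2 fold change of -0.05 (SE 0.08). Whether those transcripts raised Pfkm there was not tested. In a count chosen after the values were seen, between tumours of the same number, Hk1 and Pfkp were higher in the propranolol tumour in all 4 pairs, which makes 2 of 32 rows, against 6.92% of all genes, and 0 of 32 rows were lower in all 4, against 6.4% of all genes. With the number as a block the log2 fold changes were 0.28 for Hk1 and 0.37 for Pfkp, both at an edgeR adjusted p of 0.929.

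Pfkfb3 and Pfkfb4 encode bifunctional enzymes that make and remove an allosteric activator of phosphofructokinase, and both went their own way. Pfkfb3 measured 49.1, 21.8, 24.3 and 49.9 CPM in propranolol tumours, against 19.5, 18.7, 29.6 and 17 CPM in control tumours. It was highest in propranolol tumours 1 and 4, with a log2 fold change of 0.78 (SE 0.32, unadjusted p 0.0377, edgeR adjusted p 0.999), and its value without propranolol tumour 3 was 0.92. Pfkfb4 measured 24.0, 21.8, 17.3 and 22.2 CPM in propranolol tumours and 18.3, 20.2, 18.2 and 19.8 CPM in control tumours, lowest where most hypoxia response genes were highest. Its r with the mean of the other glycolysis rows was -0.58 over 8 tumours and -0.31 without propranolol tumour 3, and that of Pfkfb3 was 0.07.

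Gpi1 (glucose phosphate isomerase), Aldoa (aldolase A) and Tpi1 (triose phosphate isomerase) carry sugar phosphates through the middle of the pathway. Gpi1 measured 581, 604, 1309 and 707 CPM in propranolol tumours, against 630.2, 624, 839 and 598 CPM in control tumours. Aldoa measured 546, 523, 1358 and 1032 CPM in propranolol tumours, against 633, 639.5, 896 and 688 CPM in control tumours. Propranolol tumour 3 was above every control tumour in both, and propranolol tumours 1 and 2 were below every control tumour for Aldoa. The main row lies at chr7:126394406-126399923 and the second row named Aldoa next to it at chr7:126399962-126408280 (- strand, GRCm39). The second row measured only 2.31 to 3.90 CPM in propranolol tumours and 2.54 to 3.60 CPM in control tumours, and no source used here says how reads were shared between the rows. Tpi1 measured 543, 666, 1281 and 1047 CPM in propranolol tumours and 716, 715, 966 and 723 CPM in control tumours.

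The payoff steps yield ATP. Pgk1 (phosphoglycerate kinase) spanned 3.67-fold, the most of the glycolysis rows, with 567, 694, 2079.9 and 1296 CPM in propranolol tumours against 935, 792, 1267 and 791 CPM in control tumours. Pgam1 (phosphoglycerate mutase) measured 324, 369.5, 650.1 and 408 CPM in propranolol tumours against 409, 417, 511 and 426 CPM in control tumours, a log2 fold change of -0.01 (SE 0.20). Eno1 (enolase) ran from 945 to 2080.4 CPM in propranolol tumours and from 1289 to 1643 CPM in control tumours, and Pkm (pyruvate kinase) from 1603 to 2900.3 CPM and from 1753 to 2259 CPM. In each of these genes 1 or more propranolol tumours lay on either side of the whole control range.

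Gapdh, the dehydrogenase between Tpi1 and Pgk1, is uncertain here. It averaged 10.8 FPKM over the 8 tumours, next to 300.4 FPKM for Tpi1 and 465 FPKM for Pgk1, its neighbours in the pathway. Gapdh has many near-identical pseudogene copies, and no source used here says how reads shared with them were counted. Eno1 likewise has a near-identical copy, Eno1b, which averaged 269 FPKM next to 260.3 FPKM for Eno1, with a log2 fold change of 0.03 against 0.02 for Eno1. As listed, Gapdh measured 24.7, 28.4, 69.2 and 36.2 CPM in propranolol tumours, against 40.7, 54.8, 55.9 and 49.2 CPM in control tumours, a log2 fold change of -0.34 (SE 0.31).

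Ldha turns pyruvate into lactate and Slc16a3 encodes MCT4, which exports it. Ldha had the highest level per length of the 32 rows, 467 FPKM on average over the 8 tumours, ahead of Pgk1 at 465 FPKM and Pkm at 411 FPKM. The spread between tumours exceeds the gaps between these averages. Ldha measured 1019, 1254, 2365 and 1730.2 CPM in propranolol tumours and 1375, 1397, 1843 and 1454 CPM in control tumours, a log2 fold change of 0.07 (SE 0.24). Slc16a3 ran from 34.6 to 102 CPM in propranolol tumours and from 37.7 to 65.1 CPM in control tumours.

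The relation of these genes to T cell content was then examined tumour by tumour. Cd3e, a chain of the T cell receptor complex, measured 15, 4.91, 0.493 and 18 CPM in propranolol tumours, against 4.39, 3.07, 1.24 and 3.85 CPM in control tumours. Cd8a, the coreceptor of cytotoxic T cells, measured 42.6, 12.6, 1.05 and 57.0 CPM in propranolol tumours, against 12.3, 4.78, 2.59 and 5.75 CPM in control tumours. The mean log2 level of both genes, taken here as the T cell level, was 4.67, 2.999, -0.24 and 5.01 in propranolol tumours and 2.91, 1.98, 0.94 and 2.27 in control tumours. Propranolol tumour 3 and control tumour 3, which had the highest hypoxia scores, had the lowest T cell levels of their groups. The order did not hold throughout. Propranolol tumour 4 had the highest T cell level of all 8 and the third highest hypoxia score, control tumour 1 had the highest T cell level of the controls and their second highest hypoxia score, and control tumour 4 had the lowest hypoxia score of all 8 at a T cell level of 2.27.

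With group held in the model, edgeR's quasi-likelihood test called 4 of the 32 rows lower with more T cell transcripts and 0 higher (Benjamini-Hochberg adjustment over 14004 genes, Cd3e and Cd8a left out). Over all genes 303 were called lower (2.16%) and 748 higher (5.34%), 1051 in all (7.5%). The 4 are Mxi1, 1 of 14 hypoxia response genes, and Gpi1, Gapdh and Pgam1, 3 of 18 glycolysis rows. The Gapdh row carries the uncertainty about shared reads given above. Mxi1 fell by 0.30 on the log2 scale per 1 log2 unit of T cell level (SE 0.06, adjusted p 0.0144), Gpi1 fell by 0.20 (SE 0.04, adjusted p 0.0124), Gapdh fell by 0.22 (SE 0.05, adjusted p 0.0184) and Pgam1 fell by 0.16 (SE 0.04, adjusted p 0.0186). All 14 hypoxia response genes and 16 of 18 glycolysis rows had a negative fitted slope, against 7132 of all 14004 genes. The medians were -0.35 and -0.15, against -0.0016 over all genes. At an unadjusted p under 0.05 there were 17 of 32 rows, against 20.7% of all genes.

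These calls turned on single tumours. Without propranolol tumour 3 the test called 0 of 32 rows and 262 genes, without propranolol tumour 1 it called Gpi1 alone and 757 genes, and without propranolol tumour 4 it called 16 of 32 rows and 732 genes. With the tumour number as a replicate block it called 120 genes and 1 row, Pfkfb3, which was fitted higher with more T cell transcripts (slope 0.49, adjusted p 0.0254, against 0.15 and adjusted p 0.418 without the block). Across the other settings and left-out tumours the adjusted p of Pfkfb3 lay above 0.1. With the block the adjusted p of Mxi1, Gpi1, Gapdh and Pgam1 was 0.955, 0.822, 0.639 and 0.806. Their fitted slopes stayed negative with it, at -0.140, -0.136, -0.224 and -0.133. The block adds terms for the tumour numbers to group and T cell level, which leaves few degrees of freedom to estimate spread. Calls lost or gained with the block therefore cannot decide whether a slope is stable.

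**Figure D4:**
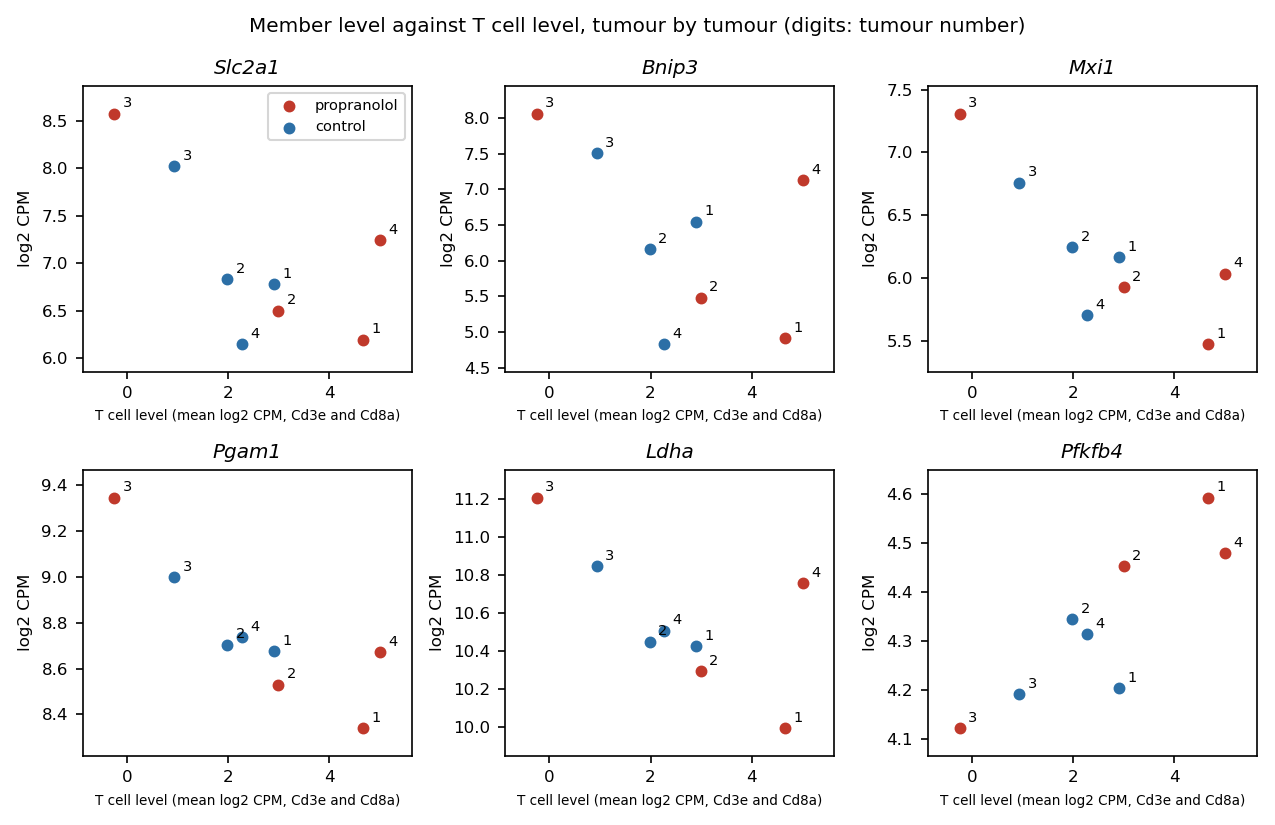
Log2 CPM of 6 genes against the T cell level (mean log2 CPM of Cd3e and Cd8a) in 4 propranolol and 4 control tumours, digits giving the tumour number. Tumours 3 lie at the top left of each panel but Pfkfb4, where they lie at the bottom left, and propranolol tumour 4 lies above the other T cell-rich tumour, propranolol 1, in each panel except Pfkfb4.

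A correlation without a model gave 0 of 32 rows past the threshold, in exact permutation tests over the 8 tumours adjusted over all genes, where 551 of all genes passed (3.93%). At an unadjusted exact p under 0.05 there were 7 rows. In 6 of them r was negative, namely Mxi1, Ero1a, Gpi1, Gapdh, Pgam1 and Eno1, against 9.18% of all genes with a negative r at that threshold and 20.7% in either direction. The largest in size were Pfkfb4 (Pearson r 0.867, exact permutation p 0.00566, adjusted p 0.0784; Spearman rho 0.881, exact p 0.00724, adjusted p 0.106) and Pgam1 (Pearson r -0.860, exact permutation p 0.00570, adjusted p 0.0786; Spearman rho -0.905, exact p 0.00456, adjusted p 0.0907). Mxi1 had a Pearson r of -0.824 (exact permutation p 0.0121, adjusted p 0.115) and a Spearman rho of -0.762 (exact p 0.0368, adjusted p 0.228).

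Slc2a1 had a Pearson r of -0.668 (exact permutation p 0.0703, adjusted p 0.282) and Car9 one of -0.511 (exact permutation p 0.194, adjusted p 0.465). The tumours farthest from the median T cell level were propranolol 3 and propranolol 4. Without these 2, r over 6 tumours was -0.966 for Pgam1, -0.974 for Eno1, -0.970 for Ldha and -0.953 for Tpi1. Over all 8 tumours r was -0.753 for Eno1, -0.673 for Ldha and -0.525 for Tpi1 (exact permutation adjusted p 0.192, 0.273 and 0.448). Over the 6 tumours it was -0.849 for Mxi1, 0.815 for Pfkfb4, -0.749 for Slc2a1 and -0.321 for Car9. Some rows shrank in size, such as Adm from -0.516 over 8 tumours to -0.065 over 6, and Hk1 from -0.336 to -0.127. In that smaller set 10 of 32 rows had an unadjusted exact p under 0.05, against 12.9% of all genes, and 0 genes passed the adjusted threshold. With 6 tumours the smallest exact p is 0.00139, so at least 389 genes would have to reach it before any could pass.

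Other cell markers moved with the same tumours. The summed level of the 4 epithelial markers was 94.8, 119.7, 185 and 83.2 CPM in propranolol tumours, against 92.5, 119, 166 and 71.9 CPM in control tumours, highest in tumour 3 of each group. That of 8 macrophage markers was 2058, 1609, 1228 and 1806 CPM in propranolol tumours, against 1683, 1491, 1257 and 1422 CPM in control tumours, lowest in tumour 3 of each group. That of 10 T cell markers was 149, 46.9, 7.45 and 189 CPM in propranolol tumours, against 46.4, 24.7, 14.7 and 42.5 CPM in control tumours, also lowest there. Single macrophage markers did not all follow their sum, and 2 of the 8 were highest in propranolol tumour 3. Of the 4 epithelial markers, 3 had both of their highest values in propranolol tumour 3 and control tumour 3. Krt8 did not, and was highest in control tumour 4, at 14.03 CPM against 4.495 CPM in propranolol tumour 3. The 5 erythroid markers summed to 25.4 to 70.9 CPM in propranolol tumours and 40.6 to 194 CPM in control tumours, and the 4 neutrophil markers in the table to 31.5 to 76.8 CPM and 37.6 to 60.6 CPM. None of these lists had a marker at 0 in any tumour, while 5 of 10 muscle markers, Ckm among them, were at 0 in 1 or more. Their part in the results above was not tested.

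Holding the T cell level in the treatment model, a setting chosen after seeing the data, raised the median fitted lean without a call. The medians were then 0.59 for the hypoxia response genes and 0.34 for the glycolysis rows, with 0 of 32 rows and 0 of all genes past edgeR's adjusted threshold and 290 genes at an unadjusted p under 0.05. Not every row rose. With the T cell level held the log2 fold change of Car9 was 0.98 against 1.15 without it, that of Pfkfb3 0.54 against 0.78 and that of Pfkfb4 0.07 against 0.16. The setting was not repeated without propranolol tumour 3.

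Of the oxygen-sensing machinery itself, 0 of 11 tested genes were called between the groups by edgeR. Of the 11, 10 were fitted higher in propranolol tumours, against 6918 of all 14006 genes, and the median log2 fold change was 0.09. Hif1a, the HIF alpha subunit, measured 132, 136, 153 and 203 CPM in propranolol tumours, against 167, 146, 174 and 134 CPM in control tumours, highest in propranolol tumour 4 and not in tumour 3. Its r with the hypoxia score was 0.573 over 8 tumours and 0.865 without propranolol tumour 3. HIF alpha is known to be controlled mainly at the protein level, which was not measured. Egln1, the main oxygen-sensing prolyl hydroxylase, was the 1 gene of this list called with the T cell level, against 7.5% of all genes. It measured 120.4, 119, 336 and 152 CPM in propranolol tumours, against 137, 119.6, 176 and 122 CPM in control tumours, and fell by 0.24 on the log2 scale per log2 unit of T cell level (SE 0.05, edgeR adjusted p 0.0198). That call was lost without propranolol tumour 3 (adjusted p 0.884), propranolol tumour 1 (0.0794) or control tumour 3 (0.0509), without the group term (0.122) and with the replicate block (0.633). The smallest unadjusted p between groups belonged to Vhl, with a log2 fold change of 0.26 (SE 0.16, unadjusted p 0.142), and Arnt2, with 0.38 (SE 0.25, unadjusted p 0.158), both at an edgeR adjusted p of 0.999.

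Among 30 further hypoxia targets 0 were called between the groups, 22 were fitted higher in propranolol tumours, the median log2 fold change was 0.11, and 15 were highest in propranolol tumour 3. Over all 14006 genes 6918 were fitted higher in propranolol tumours, and 14.2% were highest in propranolol tumour 3. With the T cell level 6 of the 30 were called lower and 1 higher, against 2.16% and 5.34% of all genes. The 4 with the smallest adjusted p were Plod1, Ppfia4, Loxl2 and Gys1. Plod1, a collagen lysyl hydroxylase, measured 117, 121, 245 and 112 CPM in propranolol tumours against 133, 142, 154 and 153 CPM in control tumours, and fell by 0.20 per log2 unit (SE 0.03, edgeR adjusted p 0.00336). Loxl2, which crosslinks collagen, fell by 0.39 (SE 0.07, adjusted p 0.00437), and Gys1, glycogen synthase, fell by 0.27 (SE 0.05, adjusted p 0.00989). Ppfia4 went the other way, with a slope of 0.44 (SE 0.07, adjusted p 0.00379) and levels of 15.1, 10.2, 3.45 and 14 CPM in propranolol tumours against 9.92, 7.56, 3.36 and 9.49 CPM in control tumours. Without propranolol tumour 3 none of Plod1, Ppfia4, Loxl2 and Gys1 was called (adjusted p 0.652, 0.129, 0.781 and 0.4997), nor was any with the replicate block (0.120, 0.932, 0.0603 and 0.838). Between groups the smallest unadjusted p belonged to Stc1, a secreted glycoprotein (log2 fold change 0.50, SE 0.19, unadjusted p 0.0237, edgeR adjusted p 0.999).

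In the rest of glucose metabolism the lists sat near the median of all genes. The 14 further glycolysis genes had a median log2 fold change of -0.01, the 10 genes of pyruvate entry into mitochondria -0.08 and the 7 of the pentose phosphate pathway 0.01, with 0 called between the groups in each. Slc2a3, the glucose transporter GLUT3, measured 7.11, 3.43, 5.73 and 13.2 CPM in propranolol tumours against 3.88, 3.07, 3.77 and 5.12 CPM in control tumours (log2 fold change 0.89, SE 0.38, unadjusted p 0.0392, edgeR adjusted p 0.999). Hk3, a hexokinase typical of myeloid cells, was the 1 gene of these 3 lists called with the T cell level, against 7.5% of all genes. It measured 107, 38.6, 13.9 and 162 CPM in propranolol tumours against 34.1, 25.5, 25.6 and 68.6 CPM in control tumours, and rose by 0.63 per log2 unit (SE 0.13, edgeR adjusted p 0.0326). Its adjusted p was 0.0366 with the replicate block and 0.314 without propranolol tumour 3, 0.0818 without control tumour 3, 0.0721, 0.0585 and 0.111 without propranolol tumours 1, 2 and 4, and 0.0558 with Cd8a alone as the T cell level. Slc16a1, the monocarboxylate transporter MCT1, had a log2 fold change of -0.20 (SE 0.10, unadjusted p 0.0643), and Dlat and Dld, components of pyruvate dehydrogenase, -0.14 (SE 0.09) and -0.16 (SE 0.11). Rpe and Rpia, the pentose phosphate isomerising enzymes, had -0.12 (SE 0.10) and 0.13 (SE 0.14).

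Outside the 32 rows, the genes whose log2 level followed the hypoxia score most closely over the 8 tumours were Insig2, Eno2, Chic2, Bhlhe40, Fer, Ccng2, Ndel1 and Bnip3l, with a Pearson r of 0.987 (Insig2) to 0.975 (Bnip3l). Without propranolol tumour 3 and control tumour 3 the r of these genes over 6 tumours was 0.901 (Ccng2) to 0.962 (Insig2). Eno2, the neuronal enolase, measured 79.0, 73.4, 394 and 147 CPM in propranolol tumours against 103, 105, 213 and 51.1 CPM in control tumours. Bhlhe40, a transcriptional repressor induced by hypoxia, measured 51.3, 46.7, 310.4 and 118 CPM in propranolol tumours against 72.0, 79.2, 227 and 43.3 CPM in control tumours. They were picked for this likeness, so the r values are a description with no test.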

How the data were processed

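The members and the gene lists were chosen with earlier results of these data known. The authors deposited 1 table with raw read counts and FPKM per gene and tumour, and their own log2 fold change and p-value columns, per the file headers; the last 2 were not used. Per the submitters' processing notes, fastp 0.19.3, HISAT2 2.1.0, featureCounts 1.6.2, StringTie 1.3.4d, DESeq2 1.22.1, edgeR 3.24.3 and build GRCm39 were used, without roles. No source used here says whether counting used strand. All 14133 genes exceed 1 CPM in at least 2 libraries.

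Here the counts were tested with edgeR 4.0.16 (R 4.3.3): TMM, filterByExpr (127 genes removed), robust quasi-likelihood F test, two-sided, Benjamini-Hochberg at 0.05. DESeq2 1.42.0, RLE size factors, no filter, other T cell levels, a replicate block and leaving out each tumour were alternatives. Exact permutation tests were two-sided over all pairings. The fits were tested on simulated data with 100 changed genes at each effect size. A log2 group difference of 1 was recovered for 59% of these genes and of 2 for 89%, with 5 unchanged genes called. A T cell slope of 0.25 was recovered for 69% and of 0.5 for 93%, with 17 unchanged genes called. The changed genes were drawn at random from tested genes with a mean above 1 CPM. Recovery was not measured for the hypoxia response genes, whose standard errors of the group difference ran from 0.34 (Kdm3a) to 1.01 (Car9). FPKM, used only to compare levels between genes, is the authors' value. Promoters are from RefSeq (GRCm38.p6), and their positions are not comparable with GRCm39.

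Groups come from the sample titles, which number 4 tumours each; the design text speaks of duplicates, and whether each is a separate animal is unlabelled, and the p-values reflect only the variation among these 8 samples, which may be technical. No library was a copy of another within a group (smallest chi-square per degree of freedom 12.7). Deviations of same-numbered tumours from their group means correlated at 0.19, 0.31, 0.51 and 0.28, all above 0.1, which meets the criterion set for a pairing. Propranolol tumours 2 and 3 correlated best with the control of their own number, propranolol tumour 1 with control 4 and propranolol tumour 4 with control 1. The labels do not say what the number stands for. The main fits and the permutation tests do not use the numbers; the blocked values stand beside the results they change. Genes named are all members, up to 4 genes of each other list past the threshold or else the 2 with the smallest p between groups, and the 8 non-members most like the hypoxia score (Gm and Rik genes omitted, mean log2 CPM 1 or more). Hif1a, Eno2 and Bhlhe40 levels were added after seeing the data. Of the lists, genes not in the table are not analysed here.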

Additional observations from a re-analysis of the deposited data

Results flagged for a closer look

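In 4 of the 64 groups of 4 tumours checked (32 rows in each group), 1 tumour lay far from the others: its gap to the nearest, as a share of the group's range, exceeded Dixon's critical value. Chance alone flags about 5% of groups, a share near the 4 of 64 found. Car9 was 136 CPM in propranolol tumour 3, far above the other propranolol tumours. Control tumour 3 was the high one for Gpi1 at 839 CPM, Tpi1 at 966 CPM and Ldha at 1843 CPM. All 4 values belong to the tumours with the highest hypoxia scores. Car9 is itself part of that score and the rows share their libraries, so the flags are a description and not separate evidence.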

How the results depend on the processing

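No treatment call depended on a setting: 0 of 32 rows and 0 of all genes passed under DESeq2, RLE size factors, no filter, the replicate block, the T cell level held (chosen after seeing the data) and each left-out tumour, where genes at an unadjusted p under 0.05 numbered 134 to 1017. The medians without 1 tumour ran from -0.40 to 0.81 for the hypoxia response genes and from -0.05 to 0.34 for the glycolysis rows.

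Fitted directions were not stable for 25 rows. Leaving out each tumour in turn gave log2 fold changes (lowest to highest) of Car9 -0.52 to 1.59, Adm -0.14 to 0.81, Vegfa -0.26 to 0.57, Slc2a1 -0.40 to 0.83, Bnip3 -0.39 to 0.91, Ndrg1 -0.51 to 1.12, Egln3 -0.43 to 0.99, Ankrd37 -0.19 to 1.16, Pdk1 -0.13 to 0.64, P4ha1 -0.16 to 0.47, P4ha2 -0.57 to 1.02, Mxi1 -0.44 to 0.31, Ero1a -0.71 to 0.80, Kdm3a -0.085 to 0.48, Gpi1 -0.094 to 0.38, Pfkl -0.10 to 0.41, Aldoa -0.030 to 0.45, the second Aldoa row -0.088 to 0.15, Tpi1 -0.053 to 0.36, Pgk1 -0.15 to 0.52, Pgam1 -0.26 to 0.11, Eno1 -0.22 to 0.18, Pkm -0.037 to 0.26, Ldha -0.19 to 0.23 and Slc16a3 -0.065 to 0.50. With the T cell level held Pgam1 was 0.13.

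The T cell slope called 262 to 1354 genes and 0 to 16 of the 32 rows without 1 tumour. Its sign changed with a left-out tumour for Car9 -0.70 to 0.35, Adm -0.33 to 0.11, Ankrd37 -0.59 to 0.17, P4ha1 -0.32 to 0.0056, Pfkp -0.083 to 0.027, Pfkm -0.0060 to 0.014, Aldoa -0.28 to 0.068 and Pgk1 -0.37 to 0.023. With 10 T cell markers Pfkm was 0.0015, with RLE size factors Pfkm was 0.00078, and without the group term Pfkp was 0.0057 and Gpi1 lost its call. The correlation called 0 to 566 genes without 1 tumour (0 in 7 of 8) and 0 without the 2 tumours farthest in T cell level. Fewer tumours also raise the smallest exact p, to 0.000198 with 7 and 0.00139 with 6, so at least 56 and 389 genes would have to reach it before any could pass, and these counts of 0 say nothing about stability by themselves.

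The replicate block pairs tumours by number. It reduced the T cell slope calls to 120 genes and 1 row, and raised the treatment count at an unadjusted p under 0.05 to 717. It turned log2 fold changes negative for Mxi1 -0.028, Ero1a -0.0082 and Eno1 -0.031 and slopes positive for Vegfa 0.017, Slc2a1 0.016, Bnip3 0.15, Ndrg1 0.091, Egln3 0.31, P4ha1 0.055, Kdm3a 0.10, Hk2 0.050, Pfkp 0.052 and the second Aldoa row 0.036, and beyond the calls given in the report it changed no other. The cause of these shifts was not tested. The blocked slope model leaves few degrees of freedom to estimate spread, so its lower count of calls says nothing about stability by itself. With 4 tumours a group and these spreads, moderate differences may go undetected.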
